A study of Mus musculus with 10 samples.

Results

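The secreted carriers of iron, heme and hemoglobin and the hepcidin axis were taken as 6 genes: Hp (haptoglobin), Hpx (hemopexin), Trf (transferrin), Cp (ceruloplasmin), Hfe and Hamp (hepcidin). They were named by function, with earlier results of these data known. All 6 were among the 13809 genes measured by RNA sequencing in 10 libraries of mouse bone marrow macrophages. LPS-treated resident macrophages (3 libraries), untreated resident macrophages (3 libraries), LPS-treated bone marrow derived macrophages, or BMDM (2 libraries), and untreated BMDM (2 libraries) were compared. All came from C57BL/6 mice aged 12 weeks. Resident macrophages, given as CD163+ in the labels, were the ferromagnetic cells that an unstained magnetic column held back. BMDM, given as CD163-, were grown from the cells that passed through it, in medium with 10% serum and 20% supernatant of L929 cells, a fibroblast line that secretes macrophage growth factor, for 6 days by the protocol and 7 days by the titles. LPS, the bacterial cell wall lipid that activates Toll-like receptor 4, was given at 1 µg/ml for 4 h. Whether libraries of a group came from separate animals or cultures is not in the labels. The p-values then describe only the spread among the libraries at hand, which may be technical apart from the difference in Y-linked reads given below.

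Haptoglobin binds free hemoglobin and hemopexin binds free heme, and macrophages and hepatocytes take up the complexes through CD163 and LRP1. Transferrin carries ferric iron to cells that bear transferrin receptors, and ceruloplasmin is a copper ferroxidase that oxidizes the ferrous iron leaving cells through ferroportin. Hepcidin, a peptide best known from the liver, binds ferroportin and causes its degradation; its gene is induced by interleukin 6 through STAT3 and by bone morphogenetic proteins through SMADs, and HFE, an MHC class I-like protein, takes part in the sensing of iron that sets hepcidin. Several of these genes are acute phase genes in the liver.

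Recovered gene read totals ran from 27.1 to 37.7 M per library. Values below are normalized reads, the authors' counts divided by 1 factor per library, and the lowest value in every library was 1. Cd163 lay between 4131 and 10740 in the 6 resident libraries and between 14.4 and 53.9 in the 4 BMDM libraries. Y-linked genes were read in replicate 1 of each resident group (Ddx3y at 1975 in the LPS-treated and 1856 in the untreated library) and stood at the floor of 1 in the other 8 libraries. Replicate 1 of each resident group thus held cells of a male, and the libraries of a resident group did not all share the same animals. The summed level of 12 macrophage markers was 210600 to 271280 in LPS-treated resident libraries, 238282 to 361825 in untreated resident libraries, 211430 to 214001 in LPS-treated BMDM and 185954 to 194107 in untreated BMDM. The 12 split between origins, with 6 higher and 4 lower in resident macrophages at an adjusted p under 0.05 (limma), without and with LPS. Higher were Mertk, C1qa, Mrc1, Cd163, Vcam1 and Spic, and lower were Adgre1, Csf1r, Cd68 and Fcgr1. Of all genes 39.2% were higher and 32.6% lower without LPS, and 36.7% and 34.5% with LPS. The sum alone does not show which origin held more macrophage RNA. The resident libraries also held transcripts of other marrow cells. The summed level of 18 neutrophil markers was 403830 to 446800 in LPS-treated resident libraries, 242863 to 433023 in untreated resident libraries, 3367 to 3581 in LPS-treated BMDM and 1945 to 2046 in untreated BMDM, and that of 13 erythroid markers was 47316 to 65019, 41543 to 57373, 1396 to 1484 and 1169 to 1358 in the same groups. In these bulk samples, fewer cells of a type and less RNA per cell cannot be told apart. None of 10 hepatocyte markers was among the genes of the table.

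LPS changed the members in different directions. Hp and Cp rose and Hfe fell with LPS in resident macrophages and in BMDM, and Hamp rose in BMDM. In resident macrophages 3 of the 6 members were called at an adjusted p under 0.05 (limma), 2 of them higher and 1 lower, where 12.9% of all 13755 genes tested were called, 7.36% higher and 5.57% lower. In BMDM 4 of the 6 were called, 3 higher and 1 lower, where 57.8% of all genes were called, 28.3% higher and 29.5% lower. The median log2 change over the 6 members was 0.34 in resident macrophages and 1.62 in BMDM, beside medians over all genes of 0.00 and -0.04. Hpx passed the filter on low values through its resident libraries alone, which fixed its direction between origins, and it is left out of the counts between origins. All 5 other members were called between untreated libraries, 4 higher and 1 lower in resident macrophages, against a background of 71.9% (39.2% higher, 32.6% lower). After LPS 3 of the 5 were called between origins, 1 higher and 2 lower in resident macrophages, against a background of 71.3% (36.7% higher, 34.5% lower). In BMDM and between origins more genes were called than not, and these counts alone do not set the members apart. The LPS response itself differed between origins for 3 of the 6 members, each with the smaller response in resident macrophages, where 41.8% of all genes were called for this difference, 19% upward and 22.8% downward.

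**Figure D1:**
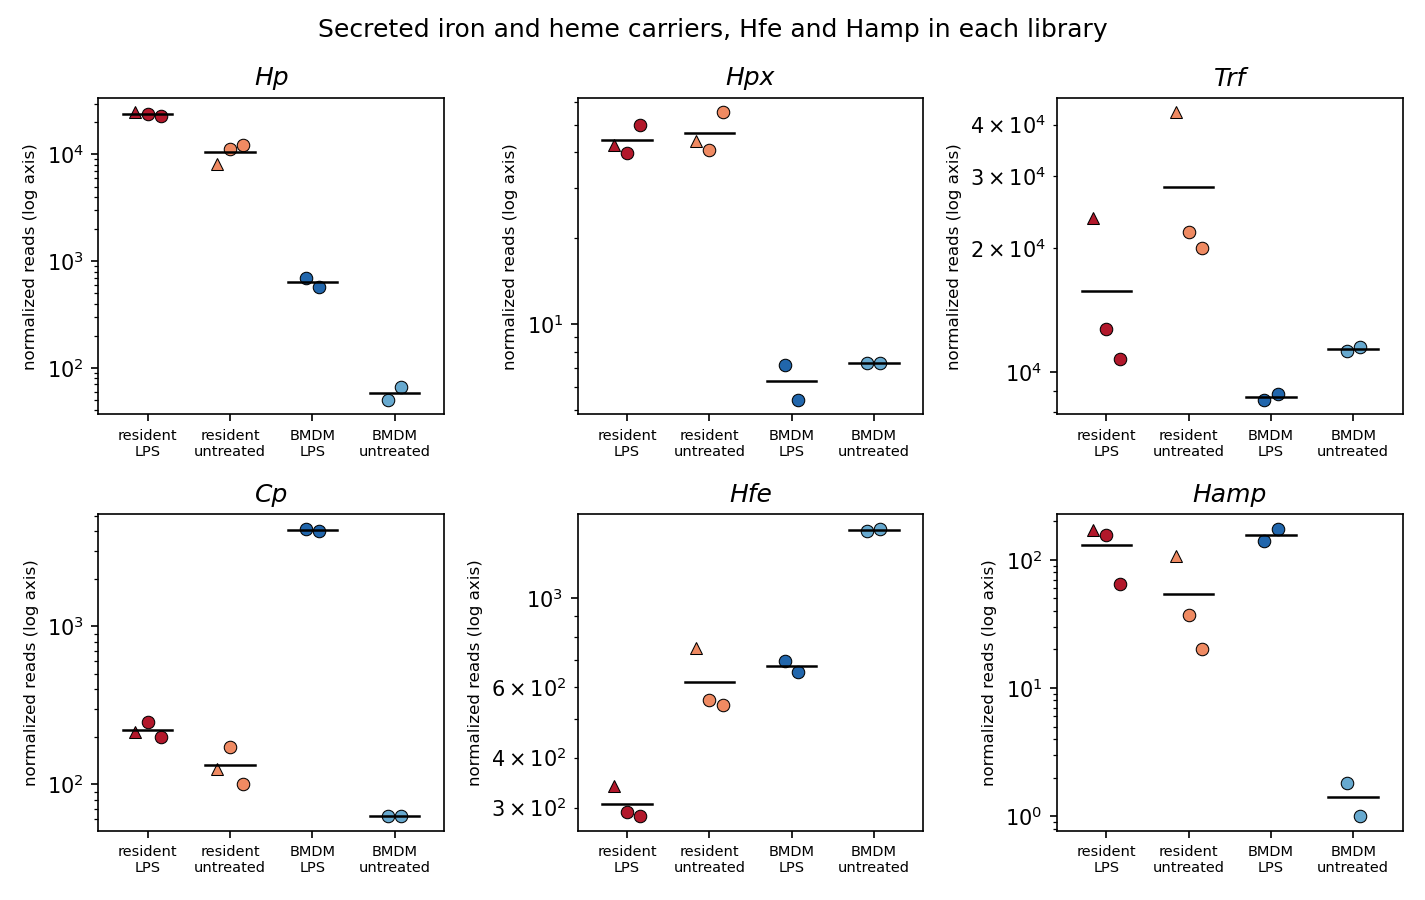
Normalized reads (log axis, with its own range in each panel) of the 6 members in every library, in 4 groups. Points are libraries, triangles are the libraries with Y-linked reads, and black lines are group means. Hp stood highest in LPS-treated resident libraries (22843 to 24813) and Cp in LPS-treated BMDM (3993 and 4161), and Hamp was at 1 and 1.82 in untreated BMDM.

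Promoter windows of 300 bases, 250 before and 50 after an annotated transcription start, are shown for Hamp and Cp, the members with the largest LPS changes in BMDM. They are RefSeq sequences on build GRCm38.p6, read 5′ to 3′ on the strand of the gene, and capitals mark matches to 4 short motifs searched on both strands. The motifs were TTCNNNGAA (a STAT-type site), GGCGCC (the core of a bone morphogenetic protein response element), TTGCNNAA (a C/EBP-type site) and ACGTG (the core of a hypoxia response element). The Hamp window is chr7:30943980-30944279 on the minus strand, and the Cp window, the second of the 2 annotated for Cp, is chr3:19956999-19957298 on the plus strand.
Hamp: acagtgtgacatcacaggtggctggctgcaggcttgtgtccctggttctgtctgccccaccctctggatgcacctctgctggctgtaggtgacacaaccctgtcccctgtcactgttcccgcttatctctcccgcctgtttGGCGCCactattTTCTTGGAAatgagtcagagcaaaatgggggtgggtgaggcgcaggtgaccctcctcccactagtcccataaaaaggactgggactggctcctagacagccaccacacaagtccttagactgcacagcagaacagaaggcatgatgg
Cp: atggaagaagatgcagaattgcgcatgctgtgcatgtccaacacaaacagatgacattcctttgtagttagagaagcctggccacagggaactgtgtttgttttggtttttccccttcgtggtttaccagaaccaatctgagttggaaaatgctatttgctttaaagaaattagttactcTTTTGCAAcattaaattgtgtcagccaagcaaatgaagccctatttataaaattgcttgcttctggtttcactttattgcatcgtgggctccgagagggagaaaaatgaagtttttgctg
In the Hamp window, GGCGCC lay at -109 to -104 from the start and a match to TTCNNNGAA lay at -97 to -89. In the Cp window a match to TTGCNNAA lay on the opposite strand at -70 to -63, and the first Cp window held none of the 4 motifs. Of 32851 promoter windows in the reference, 8.30% held TTCNNNGAA, 11.9% held GGCGCC, 10.8% held TTGCNNAA and 19.6% held ACGTG. A window was present for 4 of the 6 members: that of Hpx held 1 match to TTGCNNAA at -200 to -193 and that of Hfe held none of the 4, and Hp and Trf are named only. A match describes the letters and not a bound site.

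Hp encodes haptoglobin, which the liver secretes and which, in human marrow, maturing neutrophils also make. The gene lies at chr8:109575128-109579172 on the minus strand of mm10 (GENCODE annotation). Hp had 24813, 24015 and 22843 normalized reads in LPS-treated resident libraries, against 8108, 11161 and 12170 in untreated resident libraries. Hp had 693 and 570 normalized reads in LPS-treated BMDM, against 50.1 and 65.8 in untreated BMDM. No library of one group overlapped with another, and the resident libraries of either treatment stood far above all BMDM libraries. The log2 change with LPS was 1.21 ± 0.15 (SE) in resident macrophages (adjusted p = 0.00118, limma), a 2.28-fold higher mean, and 3.43 ± 0.19 in BMDM (adjusted p = 1.04e-07, limma), a 10.9-fold higher mean. The resident response was the smaller one, by -2.22 ± 0.24 on the log2 scale (adjusted p = 4.19e-05, limma). Hp was 181-fold higher by means in untreated resident macrophages than in untreated BMDM (7.47 ± 0.17, adjusted p = 4.07e-10, limma) and 37.8-fold higher after LPS (5.24 ± 0.17, adjusted p = 5.03e-09, limma).

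Neutrophil markers moved with Hp between origins. Of the 18, 5 (Elane, Retnlg, Cd177, Ly6g and Fcnb) passed the filter through resident libraries alone, which fixed their direction, and are left out here. All 13 others were higher in resident macrophages than in BMDM, where 39.2% of all genes were higher without LPS and 36.7% with it. Ly6g, a defining neutrophil surface marker, was at the floor in all 4 BMDM libraries. The part of the neutrophil markers in the difference of Hp was not tested. The sum of 17 neutrophil markers without Lcn2, itself an LPS-responsive gene, was 345630, 383498 and 389753 in LPS-treated resident libraries, against 224213, 333588 and 404480 in untreated resident libraries, and these groups overlapped. Of the 18 markers, 1 (Lcn2) rose and 2 fell with LPS in resident macrophages. Within the libraries with Y-linked reads (1 against 1) Hp was 3.06-fold higher with LPS, and within the others (2 against 2) 2.01-fold. The neutrophil sum was 1.54-fold and 1.05-fold higher with LPS in the same libraries, and its part in the LPS change of Hp was not tested.

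**Figure D2:**
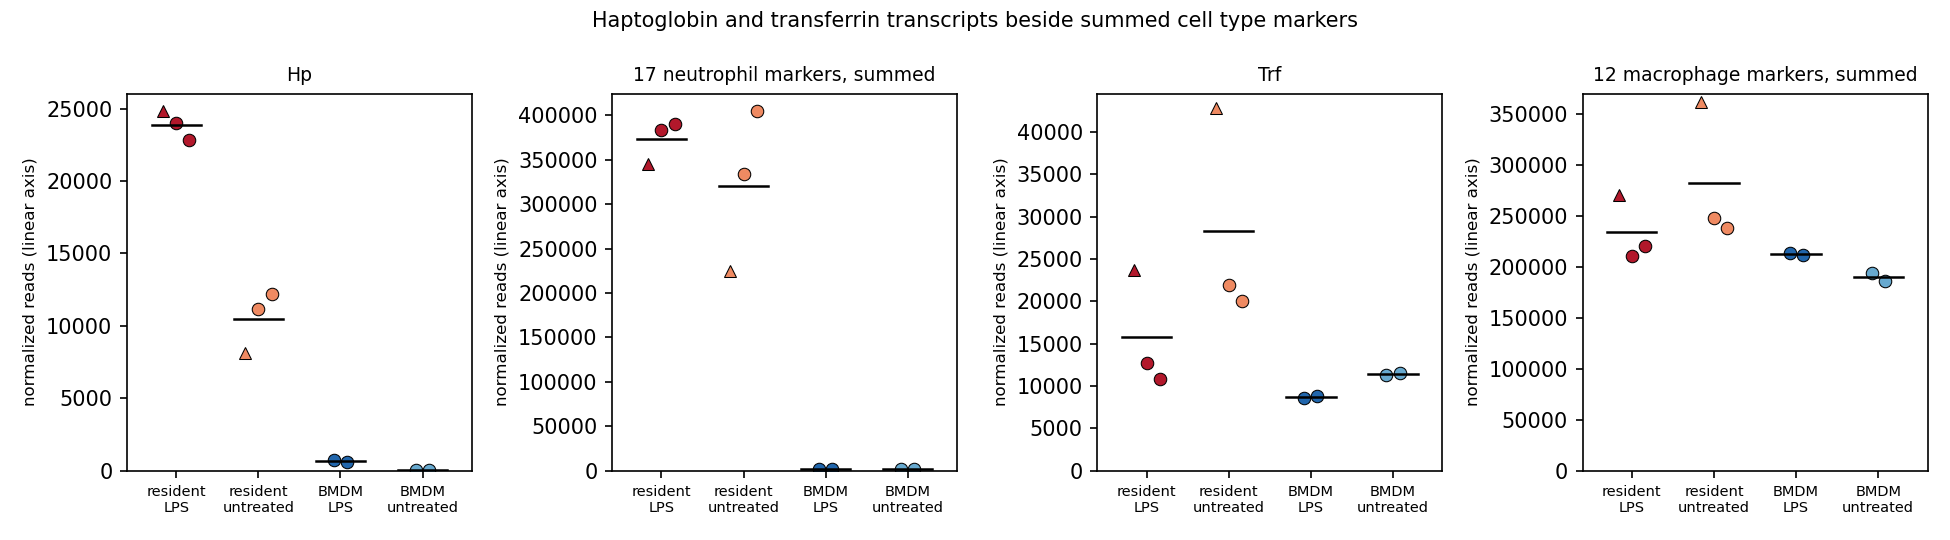
Normalized reads (linear axes from 0) of Hp, of 17 summed neutrophil markers, of Trf and of 12 summed macrophage markers in every library, in 4 groups. Points are libraries, triangles are those with Y-linked reads and lines are group means. LPS-treated and untreated resident libraries did not overlap for Hp and overlapped for the neutrophil sum and for Trf, and Trf and the macrophage sum were highest in the triangle of each resident group.

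Trf encodes transferrin, the iron carrier of plasma. The gene lies at chr9:103204001-103230444 on the minus strand and overlaps a predicted gene on the same strand that is not analysed here. Trf had 23689, 12714 and 10766 normalized reads in LPS-treated resident libraries, against 42833, 21949.6 and 19988 in untreated resident libraries. Trf had 8562 and 8843 normalized reads in LPS-treated BMDM, against 11260.6 and 11487 in untreated BMDM. Replicate 1, the library with Y-linked reads, was the highest of each resident group, 2.02 times the mean of the other LPS-treated and 2.04 times that of the other untreated resident libraries, and through it the resident groups overlapped. Both LPS-treated BMDM libraries lay below both untreated ones. The change with LPS was -0.84 ± 0.32 on the log2 scale in resident macrophages (95% interval -1.55 to -0.14, adjusted p = 0.114, limma) and -0.39 ± 0.39 in BMDM (-1.25 to 0.48, adjusted p = 0.426). Neither passed in the fit of all 4 groups, which share 1 spread. The SD of Trf was 44.3% and 44.8% of the mean in LPS-treated and untreated resident libraries, and 2.28% and 1.41% in BMDM. In a fit of the BMDM groups alone the change of -0.39 passed (adjusted p = 6.45e-06, limma).

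The Trf calls in the fit of all 4 groups also depended on how the libraries with Y-linked reads were treated. With a term for these libraries, the log2 change with LPS was -0.84 in resident macrophages (adjusted p = 3.53e-05, limma) and -0.39 in BMDM (adjusted p = 0.00245), and both passed; the values without these libraries were -0.84 (adjusted p = 0.000538) and -0.39 (adjusted p = 0.00341). The ratio of LPS-treated to untreated resident libraries was 0.553 within the libraries with Y-linked reads and 0.560 within the others. Leaving out LPS-treated resident replicate 1 alone also brought the resident change past the test (-1.18, adjusted p = 0.0244). The macrophage marker sum was likewise highest in replicate 1 of each resident group, at 271280 in the LPS-treated and 361825 in the untreated library, and its part in the Trf level was not tested.

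Between origins, Trf averaged 28257 ± 12661 normalized reads in untreated resident macrophages and 11374 ± 160 in untreated BMDM (SD, n = 3 and 2), a log2 difference of 1.23 ± 0.35 (adjusted p = 0.01003, limma). The call was lost when untreated BMDM replicate 1 was left out (1.21, adjusted p = 0.0509). After LPS Trf averaged 15723 ± 6967 in resident macrophages and 8702 ± 198 in BMDM, and the log2 difference of 0.77 ± 0.35 did not pass (adjusted p = 0.0749). It passed without LPS-treated resident replicate 3 (1.00, adjusted p = 0.0389), without untreated resident replicate 1 (0.77, adjusted p = 0.0229), and with a term for the libraries with Y-linked reads (0.42, adjusted p = 0.000779). The difference of the LPS responses was -0.46 ± 0.50 (adjusted p = 0.504) and passed with that term (-0.46, adjusted p = 0.00568) and without both libraries (-0.45, adjusted p = 0.0133).

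Hpx encodes hemopexin, the plasma scavenger of free heme. The gene lies at chr7:105591613-105600137 on the minus strand. Hpx had 42.5, 39.7 and 50.05 normalized reads in LPS-treated resident libraries, against 43.7, 40.8 and 55.2 in untreated resident libraries. Hpx had 7.20 and 5.42 normalized reads in LPS-treated BMDM, against 7.29 and 7.31 in untreated BMDM. The resident groups overlapped, both LPS-treated BMDM libraries lay just under the untreated ones, and each resident library lay above each BMDM library, where at most 8 reads were recovered. The log2 change with LPS was -0.07 ± 0.24 in resident macrophages (95% interval -0.61 to 0.46, adjusted p = 0.896, limma) and -0.19 ± 0.29 in BMDM (-0.85 to 0.46, adjusted p = 0.608), so that a change was not detected at this depth. The mean of Hpx in resident macrophages was 6.99 times that in BMDM with LPS and 6.38 times without it, given with no test because the filter was passed through the resident libraries alone. The neutrophil and erythroid marker sums given above separate the origins in the same way, and their part in the difference was not tested.

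Cp encodes ceruloplasmin, the copper ferroxidase of plasma and, in a membrane-anchored form, of several cell types. The gene lies at chr3:19957054-20009145 on the plus strand and its 3′ part overlaps Hps3 on the opposite strand. Cp had 215, 248 and 199 normalized reads in LPS-treated resident libraries, against 126, 173 and 100.02 in untreated resident libraries. Cp had 4161 and 3993 normalized reads in LPS-treated BMDM, against 62.9 and 63.1 in untreated BMDM. No library overlapped with another group's, and the LPS-treated BMDM libraries stood above all others. The log2 change with LPS was 0.76 ± 0.18 in resident macrophages (adjusted p = 0.0225, limma), a 1.66-fold higher mean. In BMDM it was 5.99 ± 0.22 (adjusted p = 5.51e-09, limma), a 64.7-fold higher mean. The resident call was lost without LPS-treated resident replicate 2 (0.67, adjusted p = 0.0830), without untreated resident replicate 3 (0.57, adjusted p = 0.0565), and when only the resident groups were fitted (0.76, adjusted p = 0.0985).

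The LPS response of Cp was smaller in resident macrophages by -5.24 ± 0.29 on the log2 scale (adjusted p = 2.60e-07, limma), and the order of the origins turned with treatment. Cp was higher in resident macrophages than in BMDM without LPS (1.03 ± 0.20, adjusted p = 0.00102, limma; 2.11-fold by means) and lower after LPS (-4.21 ± 0.20, adjusted p = 5.59e-08), at 0.0541 of the BMDM mean. Hps3, whose reads cannot be told from those of Cp in the shared stretch unless the counting used strand, had 1045, 1059 and 1189 normalized reads in LPS-treated resident libraries, against 1151, 1182 and 1308 in untreated ones, and 1316 and 1302 in LPS-treated BMDM, against 912 and 827 in untreated BMDM.

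Hfe encodes the MHC class I-like protein whose loss causes iron overload in mice and humans, and LPS lowered it in both origins. The gene lies at chr13:23702034-23710854 on the minus strand. Hfe had 339.9, 293 and 286 normalized reads in LPS-treated resident libraries, against 751, 558 and 540.1 in untreated resident libraries. Hfe had 697 and 653 normalized reads in LPS-treated BMDM, against 1470.4 and 1489.8 in untreated BMDM. Neither pair of groups overlapped, and the untreated BMDM libraries were the highest and the LPS-treated resident libraries the lowest of all. The change with LPS was -0.99 ± 0.13 on the log2 scale in resident macrophages (adjusted p = 0.00132, limma) and -1.13 ± 0.16 in BMDM (adjusted p = 0.000133), which are 0.497 and 0.456 of the untreated means. The responses differed by 0.14 ± 0.20 (95% interval -0.32 to 0.59, adjusted p = 0.628), which did not pass. Hfe was lower in resident macrophages than in BMDM without LPS (-1.28 ± 0.14, adjusted p = 2.04e-05, limma) and with LPS (-1.14 ± 0.14, adjusted p = 4.88e-05), opposite to Hp.

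Hamp encodes hepcidin, the peptide that lowers ferroportin. The gene lies at chr7:30942368-30944032 on the minus strand within a noncoding RNA gene of the opposite strand that is not analysed here. Its transcript is 94.6% identical (388 of 410 aligned bases) to that of the near copy Hamp2, which is not analysed here, so the split of reads between the copies is uncertain. Hamp had 169.9, 155 and 64.8 normalized reads in LPS-treated resident libraries, against 106, 37.0 and 20.0 in untreated resident libraries. Hamp had 139 and 175 normalized reads in LPS-treated BMDM, against 1.82 and 1 in untreated BMDM. The resident groups overlapped, since the lowest LPS-treated library lay under the highest untreated one, while the LPS-treated BMDM libraries stood far above the untreated ones.

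In resident macrophages the log2 change of Hamp with LPS was 1.45 ± 0.55 (95% interval 0.22 to 2.69) and did not pass (adjusted p = 0.120, limma). It passed with a term for the libraries with Y-linked reads (1.45, adjusted p = 0.0176), without both of them (1.84, adjusted p = 0.0199) and without untreated resident replicate 1 (2.09, adjusted p = 0.0117). The ratio of LPS-treated to untreated resident libraries was 1.60 within the libraries with Y-linked reads and 3.84 within the others. In BMDM the log2 change was 6.04 ± 0.68 (adjusted p = 2.78e-05, limma). The fitted value depends on the pseudocount (6.74 with 0.1 and 3.86 with 10) because untreated BMDM held 2 or 3 reads in all. From the recovered reads, 264 in LPS-treated against 2 in untreated BMDM, the ratio was 169 (exact 95% interval 46.3 to 1403, counting error only), and with 3 untreated reads it was 113 (38.1 to 550.0).

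The LPS response of Hamp was smaller in resident macrophages by -4.59 ± 0.88 on the log2 scale (adjusted p = 0.00194, limma). Untreated resident libraries held more Hamp than untreated BMDM (4.21 ± 0.62, adjusted p = 0.000145, limma). After LPS the origins overlapped, with 130 ± 56.8 normalized reads in resident macrophages and 157 ± 25.4 in BMDM (SD, n = 3 and 2), a log2 difference of -0.38 ± 0.62 (95% interval -1.76 to 1.00, adjusted p = 0.598) that turned to 0.06 without LPS-treated resident replicate 3.

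**Figure D3:**
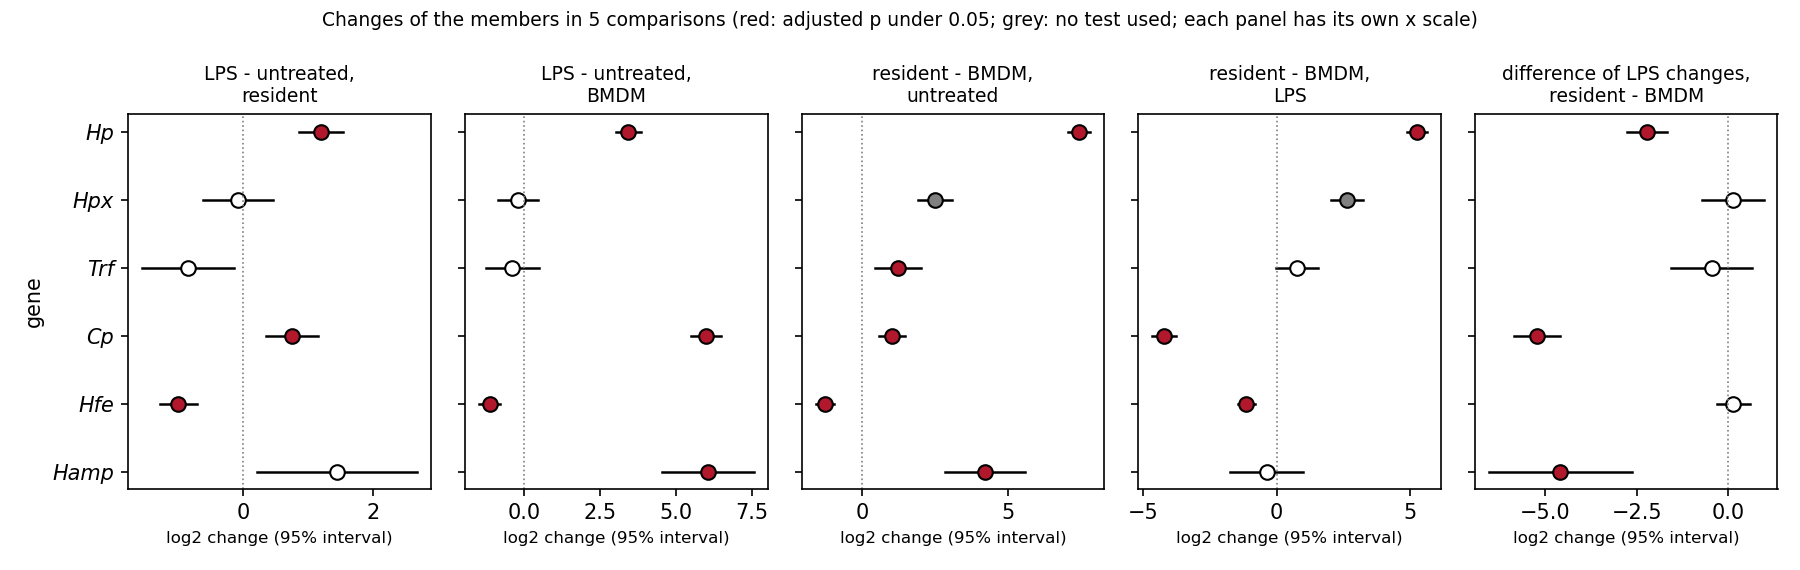
Log2 changes of the 6 members (points) with 95% intervals (lines) from limma in 5 comparisons, each panel with its own x axis; red points passed an adjusted p of 0.05, and grey points mark Hpx between origins, where no test is used. Hfe lay below 0 in the first 4 panels, and Cp lay at 1.03 in the comparison of untreated origins and at -4.21 in that after LPS.

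Levels of different genes were set side by side per kilobase of the union of annotated exons, as normalized reads per kb. In LPS-treated resident macrophages the order was Hp (14876), Trf (4736), Hamp (316), Hfe (85.7), Hpx (29.4) and Cp (23.1), and in untreated resident macrophages it was Trf (8511), Hp (6525), Hfe (173), Hamp (133), Hpx (31.1) and Cp (13.9). In LPS-treated BMDM the order was Trf (2621), Cp (426), Hp (393), Hamp (382), Hfe (189) and Hpx (4.21), and in untreated BMDM it was Trf (3426), Hfe (414), Hp (36.1), Cp (6.58), Hpx (4.87) and Hamp (3.44). Neighbours whose means lay within 1 SD of either gene were Trf and Hp, Hfe and Hamp, and Hamp and Hpx in untreated resident macrophages, and Cp, Hp and Hamp in LPS-treated BMDM, so their order is not resolved. Trf led in both BMDM groups and Hp in LPS-treated resident macrophages. Exon unions differ from 410 bases for Hamp to 9566 for Cp, and the isoforms in use were not measured.

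The partners through which the carriers act were described with 11 genes that were measured of 14 listed. With LPS 3 of the 11 fell and none rose in resident macrophages (median log2 change -0.36, all genes 0.00), and 5 fell and 2 rose in BMDM (median -0.62, all genes -0.04). Over all genes 7.36% rose and 5.57% fell with LPS in resident macrophages, and 28.3% rose and 29.5% fell in BMDM, and the counts of this and the following lists stand beside these shares. Slc40a1 encodes ferroportin, the iron exporter that hepcidin binds. It averaged 8909 ± 1478 normalized reads in LPS-treated and 16971 ± 3355 in untreated resident macrophages (SD, n = 3 each), and 369 ± 17.8 in LPS-treated and 692 ± 12.9 in untreated BMDM (n = 2 each). It fell in both, by -0.92 ± 0.15 in resident macrophages (adjusted p = 0.00479, limma) and by -0.91 ± 0.19 in BMDM (adjusted p = 0.00209), and its level was 24.5-fold higher in untreated resident macrophages than in untreated BMDM by means. The other falls in resident macrophages were Steap3, an endosomal iron reductase, and Hmox1, heme oxygenase. The count of 3 was 1 when LPS-treated resident replicate 2, untreated resident replicate 3 or any 1 of the BMDM libraries was left out.

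The receptor genes Cd163 and Lrp1 fell in BMDM. Lrp1, the receptor for heme and hemopexin complexes, averaged 20854 ± 4023 normalized reads in LPS-treated and 26547 ± 3320 in untreated resident macrophages, a log2 change of -0.36 ± 0.14 that did not pass (adjusted p = 0.135, limma) but did without LPS-treated resident replicate 3 (-0.51, adjusted p = 0.0389). In BMDM it averaged 12102 ± 460 with LPS and 39967 ± 2214 without (-1.72 ± 0.18, adjusted p = 1.31e-05), and its response differed between origins (1.37 ± 0.23, adjusted p = 0.000791). Cd163, the receptor for haptoglobin and hemoglobin complexes, was at 14.6 ± 0.357 in LPS-treated and 47.9 ± 8.48 in untreated BMDM (-1.63 ± 0.30, adjusted p = 0.000891), a call lost with limma-voom on the reads recovered from the table (adjusted p = 0.250). In resident macrophages Cd163 changed by -0.49 ± 0.24 with LPS, which did not pass (adjusted p = 0.224). It passed with a term for the libraries with Y-linked reads (-0.49, adjusted p = 0.0145, limma). B2m, the light chain that HFE needs to reach the cell surface, averaged 128224 ± 2624 in LPS-treated and 55503 ± 2213 in untreated BMDM (1.21 ± 0.21, adjusted p = 0.000716), where Hfe fell, and this call was lost after quantile normalization (0.19, adjusted p = 0.278). The transferrin receptor gene Tfrc changed by 0.27 ± 0.17 in resident macrophages (adjusted p = 0.345) and by 0.24 ± 0.21 in BMDM (adjusted p = 0.347). The resident change passed with the term for the libraries with Y-linked reads (0.27, adjusted p = 0.0333, limma). That in BMDM passed when only the BMDM groups were fitted (0.24, adjusted p = 0.0149, limma), and it turned to -0.37 with library totals made equal.

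**Figure D4:**
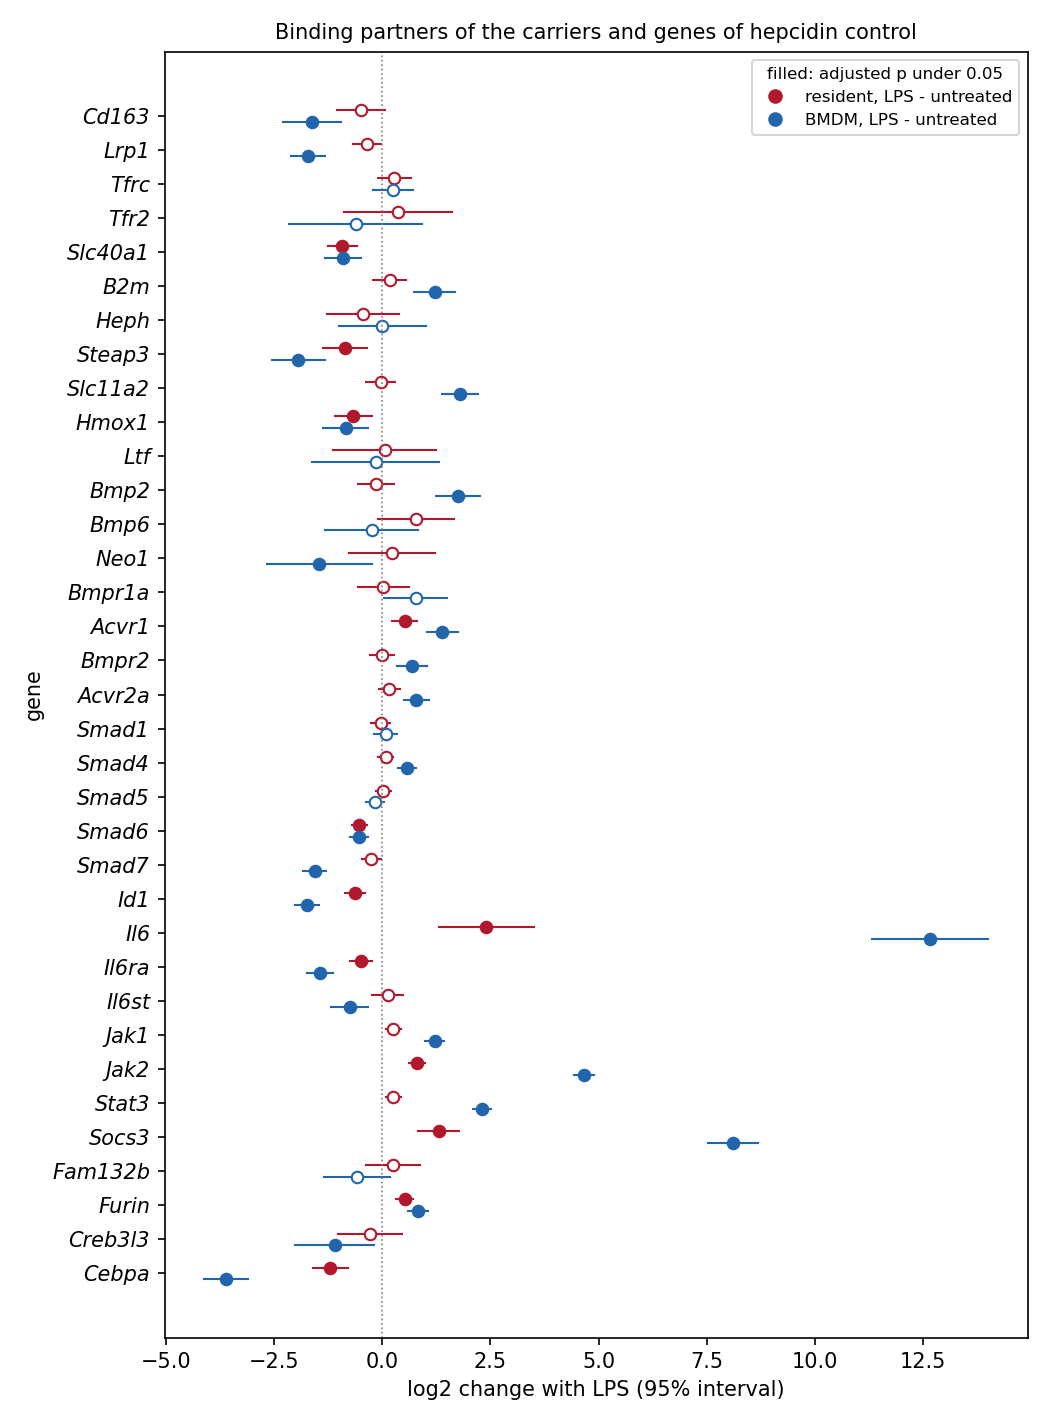
Log2 change with LPS (x axis, points with 95% intervals from limma) of the measured binding partners and genes of hepcidin control (y axis), in resident macrophages (red) and BMDM (blue); filled points passed an adjusted p of 0.05. Il6 and Socs3 lay farthest to the right in BMDM, at 12.67 and 8.10, and Slc40a1 lay below 0 at nearly the same place in both origins.

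Genes that control hepcidin were described with 25 of 31 listed. In resident macrophages 5 rose and 4 fell with LPS (median log2 change 0.12), and in BMDM 11 rose and 8 fell (median 0.08). With library totals made equal, which shifted the median of all genes in BMDM to -0.64, 7 were higher and 11 lower there. The 19 called in BMDM are set beside a background of 57.8% of all genes, and the 9 in resident macrophages beside 12.9%. Of the interleukin 6 arm in this list, Il6, Jak1, Jak2, Stat3 and Socs3 rose in BMDM and the receptor genes Il6ra and Il6st fell. Il6 averaged 2431 ± 398 normalized reads in LPS-treated and 481 ± 192 in untreated resident macrophages (2.40 ± 0.49, adjusted p = 0.0121, limma), and 29282 ± 2022 in LPS-treated and 5.06 ± 5.74 in untreated BMDM (12.67 ± 0.60, adjusted p = 3.48e-08). The lower untreated BMDM library was at the floor for Il6, so the size of its change in BMDM depends on the pseudocount. Socs3, a feedback inhibitor that STAT3 induces, rose by 1.30 ± 0.21 in resident macrophages (adjusted p = 0.00410) and by 8.10 ± 0.26 in BMDM (adjusted p = 1.96e-09). Both responses were smaller in resident macrophages, by -10.26 ± 0.78 for Il6 (adjusted p = 2.86e-06) and -6.80 ± 0.33 for Socs3 (adjusted p = 1.22e-07). Socs3 already stood at 19812 ± 6939 in untreated resident macrophages, against 213 ± 9.43 in untreated BMDM.

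Of 12 genes of the bone morphogenetic protein arm, from ligands to SMADs and Id1, 1 rose and 2 fell with LPS in resident macrophages and 5 rose and 3 fell in BMDM. The receptor gene Acvr1 rose in both, by 0.52 ± 0.13 in resident macrophages (adjusted p = 0.0279, limma) and by 1.38 ± 0.16 in BMDM (adjusted p = 3.33e-05), and the ligand gene Bmp2, the receptor genes Bmpr2 and Acvr2a and Smad4 rose in BMDM, by 0.58 to 1.75. With library totals made equal, the calls of Acvr1 in resident macrophages and of Bmpr2, Acvr2a and Smad4 in BMDM were lost, and Smad4 stood at -0.04; that of Bmpr2 was also lost after quantile normalization. The inhibitor gene Smad6 fell in both origins, by -0.53 ± 0.08 in resident macrophages (adjusted p = 0.00230) and by -0.54 ± 0.09 in BMDM (adjusted p = 0.000621), and the inhibitor gene Smad7 fell in BMDM (-1.57 ± 0.12, adjusted p = 1.43e-06). Id1, a target of SMAD signalling, fell by -0.64 ± 0.10 in resident macrophages (adjusted p = 0.00410, limma) and by -1.75 ± 0.13 in BMDM (adjusted p = 9.51e-07). Bmp6, the ligand that reports iron stores in the liver, had 29.0 ± 12.6 normalized reads in LPS-treated and 15.9 ± 5.18 in untreated resident macrophages, and stood between 1 and 1.83 in all BMDM libraries. It was not called with LPS in resident macrophages (0.78 ± 0.40, adjusted p = 0.241) or BMDM (-0.25 ± 0.49, adjusted p = 0.699). Cebpa, a transcription factor that drives hepcidin in hepatocytes, fell by -1.20 ± 0.19 in resident macrophages (adjusted p = 0.00334) and by -3.62 ± 0.23 in BMDM (adjusted p = 3.00e-07). Tfr2, the partner of HFE in iron sensing, had 49.6 ± 26.8 normalized reads in LPS-treated resident macrophages (SD, n = 3) and at most 5.47 in any BMDM library, and no test between origins is given because it too passed the filter through resident libraries alone.

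Of 15 acute phase genes measured of 29 listed, 8 rose and none fell with LPS in resident macrophages (median log2 change 0.76), and 12 rose and none fell in BMDM (median 3.98), where 12.9% and 57.8% of all genes were called. The others did not pass, 7 in resident macrophages and 3 in BMDM. Saa1, among both the 8 and the 12, passed the filter through LPS-treated BMDM alone. It had only 5.89 to 8.31 normalized reads in LPS-treated resident libraries and was at the floor in the untreated resident ones. Ptx3, a secreted pattern recognition protein, rose by 4.44 ± 0.42 in resident macrophages (adjusted p = 0.000244, limma) and by 9.30 ± 0.51 in BMDM (adjusted p = 1.03e-07). Untreated BMDM held 3.70 ± 3.82 normalized reads of Ptx3 (SD, n = 2), with the lower library at the floor. The size of the Ptx3 change in BMDM therefore depends on the pseudocount. Saa3, a serum amyloid A protein of macrophages, averaged 9394 ± 1759 normalized reads in LPS-treated and 1289 ± 472 in untreated resident macrophages, and 70617 ± 10155 in LPS-treated and 115 ± 0.214 in untreated BMDM. For 9 of the 15 the response was smaller in resident macrophages and for none was it larger by the test, where 41.8% of all genes were called. After LPS the origins split: Lcn2, a siderophore-binding protein, and Orm1 were among 5 genes higher in resident macrophages, as Hp was, and Saa3 and the metallothionein gene Mt2 were among 6 lower, as Cp was. Lcn2 is also in the neutrophil marker list, whose sums given above were higher in resident libraries, and their part in this split was not tested. Saa1, Serpina3n and A2m, which passed the filter through 1 origin alone, are left out of these counts, and 71.3% of all genes were called in this comparison.

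Of 13 genes of copper supply measured of 15 listed, 2 rose and 1 fell with LPS in resident macrophages (median log2 change -0.05) and 9 rose and 2 fell in BMDM (median 1.67), where 12.9% and 57.8% of all genes were called. Steap1, among the 9, passed the filter through LPS-treated BMDM alone. With library totals made equal 8 rose and 5 fell in BMDM (median 1.06), and after quantile normalization 8 rose and 3 fell (1.08). The resident count was 1 when LPS-treated resident replicate 2, either of untreated resident replicates 2 and 3 or any 1 of the BMDM libraries was left out, and the BMDM count of 11 was 7 without LPS-treated BMDM replicate 2. Mt2 averaged 421 ± 331 normalized reads in LPS-treated and 333 ± 262 in untreated resident macrophages (0.34 ± 0.55, adjusted p = 0.760, limma), and 13380 ± 1566 in LPS-treated and 121 ± 10.1 in untreated BMDM (6.77 ± 0.67, adjusted p = 1.08e-05). Steap4, a metalloreductase, rose in resident macrophages (2.44 ± 0.24, adjusted p = 0.000356) and in BMDM (3.98 ± 0.30, adjusted p = 1.25e-06), where both untreated libraries were at the floor. Atp7a, a copper pump, fell in BMDM (-0.56 ± 0.13, adjusted p = 0.00396).

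Of 13 MHC class I-like relatives and partners of Hfe measured of 14 listed, 3 rose and 2 fell with LPS in resident macrophages (median log2 change 0.12), a median that was -0.02 after quantile normalization. This count of 5 was 3 without LPS-treated resident replicate 1 and 2 without LPS-treated resident replicate 2. In BMDM 10 rose and 2 fell (median 1.45), against 7 and 1 after quantile normalization (median 0.57) and 9 and 3 with library totals made equal (median 0.84). Over all genes 12.9% were called in resident macrophages and 57.8% in BMDM. H2-Q6 rose in resident macrophages (0.80 ± 0.15, adjusted p = 0.00772, limma) and H2-Q7 in BMDM (3.63 ± 0.15, adjusted p = 9.83e-09). Mr1, which presents microbial vitamin metabolites, fell with Hfe in both origins, by -0.75 ± 0.18 in resident macrophages (adjusted p = 0.0237) and by -1.23 ± 0.22 in BMDM (adjusted p = 0.000795); the resident call was lost without LPS-treated resident replicate 1 (-0.65, adjusted p = 0.0592) or 2 (-0.80, adjusted p = 0.0508).

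The genes whose log2 values followed each member most closely were found by Pearson's r over the 10 libraries among 12334 genes. They are a description, since the libraries fall into 4 groups that differ widely. Hp was followed by Il1f9, Lcn2 and Rap1gap2 (r = 0.996 each). Hpx was followed by Fcmr (0.997), Cd177 (0.997) and Pitpnm2 (0.996). Lcn2 and Cd177 are also in the neutrophil marker list. Trf was followed by Mgst1 (0.982), Ctsf (0.981) and Ube2b (0.978), and Cp by Xkr8 (0.998), Snx2 (0.998) and Zfp800 (0.997). Hfe was followed by Tnni2 (0.989), Pink1 (0.987) and BC022687 (0.987), and Hamp by Xcr1 (0.992), E2f5 (0.991) and Cd44 (0.991).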

How the data were processed

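RNA was sequenced in 10 libraries, and the authors deposited 1 table of signal values, gene read counts divided by a factor per library. HISAT 0.1.7 and mm10 are named in the submitters' processing notes; for the counting program and annotation, the sources used here give no name. Values above the floor and under 1000 reads were whole multiples of 1 step per library (0.892 to 1.35) in 100% of cases, within a tolerance of 0.02. Log2 of the value plus 1 was fitted with limma 3.58.1 in R 4.3.3, as 1 model of the 4 groups with a variance trend and 6 residual degrees of freedom, for the 13755 genes that reached 10 in 2 or more libraries. P-values were adjusted by Benjamini and Hochberg's method over all genes within each of 5 comparisons, some of which share groups, and rose, fell, higher and lower refer to adjusted p under 0.05. The fit was tested on simulated counts with the same spread setting for all genes and no difference between origins. That test checks the code and not how well the model suits these libraries. Members, lists, markers and motifs were chosen with earlier results of these data known. Beyond the members and 8 fixed partners and inducers, the rule named up to 2 rises and 2 falls per list and comparison, and other genes within small counts were named with their values known. Positions on mm10 are GENCODE's. Alternatives changed the pseudocount, filter, scaling, trend, libraries with Y-linked reads, groups fitted and each library in turn, and limma-voom on recovered reads was added after seeing the data.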

Additional observations from a re-analysis of the deposited data

Results flagged for a closer look

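The LPS response differed between origins, by the limma test of the difference itself, for 3 members. Hp responded less in resident macrophages than in BMDM by -2.22 on the log2 scale, Cp by -5.24 and Hamp by -4.59. All 3 had a higher level in untreated resident macrophages than in untreated BMDM. Hamp stood at 1.82 and at the floor of 1 in untreated BMDM, so the size of its difference depends on the pseudocount.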

How the results depend on the processing

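No paired analysis was run because the labels number the libraries through the whole series and tie no library of one group to a library of another. The values show a likeness: Y-linked reads mark replicate 1 of each resident group. The summed megakaryocyte and platelet markers were 17033, 44954 and 28170 in LPS-treated resident replicates 1 to 3, and 12761, 41523.5 and 28838 in untreated ones. Whether resident libraries of the same number share a source was not tested, and the main p-values are unpaired. Over 22 alternatives, of which the fit of only the groups compared covered 4 of the 5 comparisons, 574 values of single members, leaving out Hpx between origins, kept their direction and their side of the threshold, 23 newly passed, 4 no longer passed and 5 changed sign. Of the counts of members called, Hpx included, 107 stayed within 1.5 times the main count, and in LPS-treated against untreated resident macrophages the count was 5 with a term for the libraries with Y-linked reads and 5 without both. Between origins these counts hold Hpx, whose direction the filter fixed, so their steadiness there was partly set in advance. Leaving out a library in turn moved Hpx with LPS in resident macrophages between -0.17 and 0.053 (above 0 without untreated resident replicate 3), Hamp after LPS between origins between -0.63 and 0.057 (above 0 without LPS-treated resident replicate 3), and the difference of responses of Hpx between -0.055 and 0.30 (under 0 without LPS-treated BMDM replicate 2). That of Trf was 0.24 after quantile normalization and 0.029 with equal library totals. With quantile normalization and with equal totals Trf passed with LPS in resident macrophages (-1.03 and -0.97) and BMDM (-1.28 and -0.998) and after LPS between origins (1.10 and 1.09), and with equal totals Hfe passed for the difference of responses (0.62). Fits of only the groups compared called Trf in BMDM (-0.39) and after LPS between origins (0.77). A filter of 100 left Hpx out.

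Of the other named genes, 2156 values held, 115 no longer passed, 6 newly passed and 17 changed sign, and of these results B2m after LPS between origins was the one called in the main analysis. B2m had -0.29 with LPS in resident macrophages and 0.12 after LPS between origins with quantile normalization. Leaving out a library moved Tfr2 between -0.054 and 0.80 in resident macrophages and between -1.30 and 0.055 in BMDM, and the difference of responses between -0.15 and 0.18 for Tfrc and between -0.19 and 0.13 for Slc40a1. Tfrc had -0.37 in BMDM with equal totals, and the difference for Slc40a1 was 0.47 with equal totals and 0.029 without both libraries with Y-linked reads. Of the counts in lists, 513 stayed within 1.5 times, 29 were lower and 3 were higher; with the term for libraries with Y-linked reads, the counts with LPS in resident macrophages were 5 partners and 6 genes of copper supply.

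Equal totals shifted the median of all genes to -0.12 and -0.64 with LPS in resident macrophages and BMDM, -0.08 and 0.35 between origins without and with LPS, and 0.48 for the difference. The share of calls that were higher was then 27.1%, 21.7%, 47.4%, 68.2% and 75.2%, beside 56.9%, 49.0%, 54.6%, 51.5% and 45.5% as deposited. After quantile normalization it was 47.8%, 40.04%, 41.5%, 45.5% and 56.9%. With the term for the libraries with Y-linked reads 3449 genes were called with LPS in resident macrophages, beside 1779 without it. The planned count test on recovered reads was not run; limma-voom on those reads kept all member calls. Resident groups of 3 and BMDM groups of 2 libraries, and few reads of Hpx and Hamp in BMDM, limit what can be detected.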
